A study of Homo sapiens with 18 samples.

Results

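HMGA1 and HMGA2, the high mobility group A proteins, and the RNA-binding proteins IGF2BP1, IGF2BP2 and IGF2BP3 are encoded by 5 of the 38716 gene symbols in the count tables. They were chosen by name, as were the gene lists below, with earlier results of these data known. All 5 passed the filters on low counts in mRNA-seq (13173 genes passed), in ribosome profiling (4643 genes) and in the comparison of the assays (4618 genes). The cells were IMR90, human lung fibroblasts that stop dividing after prolonged passaging. Young refers to proliferating cells of low passage, old to cells passaged until they had entered replicative senescence, and ICM to low-passage cells exposed for 6 days to inflachromene, which binds HMGB1 and HMGB2. The labels give no genotype or added allele for any group and do not say whether the young cells received the solvent. Each condition had 3 replicates, described in the study's methods as independently grown. Each lysate, made with cycloheximide, was divided between mRNA-seq of poly(A) RNA and Ribo-seq, in which the fragments held by ribosomes (footprints) are sequenced. All conditions come from this 1 cell line, so replicates are cultures, not donors. The study's text describes equivalent senescence data as made in an earlier experiment and the labels give no batch, so that condition and time of preparation cannot be told apart.

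HMGA proteins bind AT-rich DNA in the minor groove and bend it, and they are built into the heterochromatin foci of cells that undergo senescence after oncogene activation. IGF2BP proteins bind mRNAs through RRM and KH domains and act on their stability, localisation and translation, with the mRNA of the growth factor IGF2 as the client that named them. The families are linked. HMGA2 binds within the IGF2BP2 gene and activates it, and the mRNAs of HMGA2 and IGF2BP1 are textbook targets of let-7, a microRNA family that the LIN28 proteins hold back. Most of the 5 genes are best known from embryonic tissue and tumours.

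The let-7 sites of the 3′ UTRs are shown because they are the sequence feature that HMGA2 and IGF2BP1 have in common beyond what is usual. The mature microRNA (RefSeq) is printed with its seed, bases 2 to 8, in capitals, and each target window of 30 bases (mRNA strand, GRCh37, GENCODE v44lift37) has the match to the seed, CTACCTC, in capitals.
hsa-let-7a-5p: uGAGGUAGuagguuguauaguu
HMGA2 site 1: gccaacgttcgatttCTACCTCagcagcag
HMGA2 site 2: ccccactactcaataCTACCTCtgaatgtt
HMGA2 site 3: ttgacttgcaaagacCTACCTCcagacttc
HMGA2 site 4: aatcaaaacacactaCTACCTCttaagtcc
IGF2BP1 site 2: cagcagtgctagtaaCTACCTCacagagcc
HMGA1 site 1: tcctctgttcacaaaCTACCTCtggacagt
IGF2BP2 site 1: aacacacagaagaagCTACCTCaggtgttt
IGF2BP3 site 1: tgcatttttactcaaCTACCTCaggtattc
The seed is shared by 11 human mature microRNAs in RefSeq, 9 of them named let-7 or miR-98. On the mRNA strand, HMGA2 and IGF2BP1 each held 4 matches in their 3′ UTRs, and HMGA1, IGF2BP2 and IGF2BP3 each held 1. Of 18633 annotated 3′ UTRs, 9.87% held at least 1 match. Longer 3′ UTRs hold more matches by length alone. Among 3′ UTRs of like length, the gene's own included, 0.0921% of 2172 had at least as many matches as HMGA2. For IGF2BP1 the share was 0.543% of 737. It was 8.5% for HMGA1, 12.8% for IGF2BP2 and 12.3% for IGF2BP3. The matches of HMGA2 lay 21, 1256, 1668 and 2521 bases after its stop codon. A match is a description of the sequence, and let-7 itself was not measured.

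HMGA1 lies at chr6:34204650-34214008 on the plus strand, HMGA2 at chr12:66218240-66360071 on the plus strand and IGF2BP1 at chr17:47074747-47133507 on the plus strand. IGF2BP2 lies at chr3:185360918-185542830 and IGF2BP3 at chr7:23349828-23510110, both on the minus strand. The coding sequences of HMGA1 and HMGA2 have 324 and 330 bases, and those of IGF2BP1, IGF2BP2 and IGF2BP3 have 1734, 1800 and 1740. Of the 30-base words of the coding sequence, 57.3% for HMGA1, 45.7% for IGF2BP2 and 42.0% for IGF2BP3 also occur in transcripts of other genes, mainly processed pseudogenes, against 0 for HMGA2 and IGF2BP1. The counts of HMGA1, IGF2BP2 and IGF2BP3 are therefore uncertain as single genes. The exons of IGF2BP3 also overlap those of MALSU1, on the other strand, over 1521 bases, and the strand setting of the counting is not given in the sources used here.

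The depth differed between assays. The mRNA-seq libraries held 7902427 to 14144455 reads in coding genes, so that 1 read was worth at most 0.124 CPM (counts scaled to a common library size, with TMM factors). The Ribo-seq libraries held 46239 to 1718521 reads in coding sequences (CDS), and 1 read was worth 22.8 CPM in the shallowest, ICM replicate 3. In Ribo-seq, young replicate 1 and old replicate 2 stood apart, with 34.4% and 15.0% of reads in the CDS against 54.7% to 88.8% in the other 7 libraries. All 12 fibroblast markers had a mean over 1 CPM in every condition, with a summed level of 34798 to 39490 CPM in young, 32123 to 37419 in old and 14613 to 15215 in ICM cells. COL1A1, the highest of them in young cells, had a mean of 14510 CPM there and 3064 in ICM cells. DCN stood at 1413 and 1571 CPM and LUM at 145 and 144, while the other markers were all lower in ICM than in young cells. The 5 proliferation markers summed to 510 to 533 CPM in young, 127 to 143 in old and 16.7 to 21.8 in ICM cells. Of the epithelial list (4 genes, summed level at most 1.74 CPM) none had a mean over 1 CPM. Of the endothelial list (3 genes), VWF had a mean of 3.38 CPM in ICM cells and CDH5 was at 0 in every condition. Of the leukocyte list (3 genes), CD68 alone had a mean over 1 CPM, and the summed level was 19.5 to 21.6 CPM in young, 32.4 to 35.6 in old and 53.9 to 66.1 in ICM cells. Both smooth muscle markers were above 1 CPM, at a summed 78.4 to 85.6 CPM in young, 59.4 to 72.9 in old and 29.4 to 29.8 in ICM cells. These marker levels moved with the conditions alongside every result below, and their part in them was not tested. Since the samples are bulk lysates and CPM are relative to the library, fewer cells of a type and less RNA per cell cannot be told apart.

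What inflachromene does to proliferating cells is asked by setting ICM against young cells. All 5 mRNAs fell in ICM cells, HMGA2 by 6.90-fold, HMGA1 by 3.30-fold, IGF2BP1 by 2.66-fold, IGF2BP3 by 1.52-fold and IGF2BP2 by 1.14-fold (edgeR quasi-likelihood test, called at a Benjamini-Hochberg adjusted p under 0.05). In that comparison 71% of all genes tested were called, with 34.9% of all genes tested higher and 36.1% lower in ICM cells, so the count of 5 is read against these shares. In old cells against young, which asks what replicative senescence does, HMGA2 and IGF2BP3 rose, IGF2BP1 and IGF2BP2 fell, and HMGA1 was not called. These 4 calls, 2 in each direction, stand beside 66.1% of all genes, with 32.4% higher and 33.7% lower in old cells. Between ICM and old cells all 5 were called, IGF2BP2 as higher in ICM and the others as lower, against 63.3% of all genes, 30.7% higher and 32.6% lower. The comparisons share libraries, ICM vs young and old vs young the young ones. The median log2 change of all genes tested was -0.01 in each comparison.

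**Figure D1:**
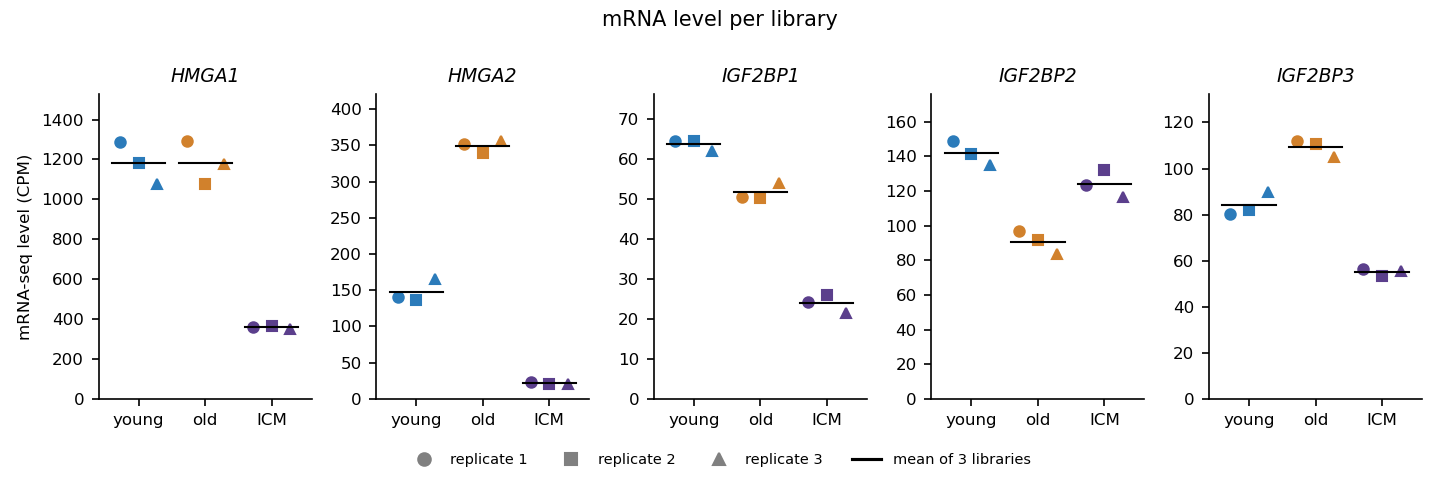
mRNA-seq level in CPM (y axis, from 0, with its own scale in each panel) of the 5 genes in each of the 9 libraries, by condition (x axis). Symbols mark the replicate and lines the mean of 3 libraries. HMGA2 is highest in old cells, at 339.9 to 357 CPM, and lowest in ICM cells, at 20.2 to 23.6 CPM, while HMGA1 overlaps between young and old cells.

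HMGA2, the embryonic HMGA protein, showed the widest range of the 5. Its mRNA stood at 141, 137 and 166 CPM in young replicates 1 to 3, at 352, 339.9 and 357 CPM in old, and at 23.6, 20.4 and 20.2 CPM in ICM cells. The 3 groups did not overlap, with old cells on top and ICM cells at the bottom. The log2 change was -2.79 in ICM against young (SE 0.09, adjusted p = 7.78e-18, edgeR), 1.24 in old against young (SE 0.07, adjusted p = 1.28e-12) and -4.03 in ICM against old (SE 0.09, adjusted p = 1.03e-20). The last of these is the test that the 2 conditions differed, and it corresponds to a 16.3-fold lower level in ICM cells. All 3 calls kept their direction and stayed called in all 18 alternatives each.

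HMGA1, the more widely expressed family member, differed between ICM cells and both other groups. It stood at 1285, 1180.3 and 1077 CPM in young, 1295, 1076 and 1175 CPM in old, and 359, 365 and 350 CPM in ICM cells. Young and old libraries were interleaved, and every ICM library was below all of them. The fitted log2 change was -1.72 in ICM against young (SE 0.08, adjusted p = 4.33e-15, edgeR) and -1.72 in ICM against old (SE 0.08, adjusted p = 5.46e-15). In old against young it was 0.00, with a 95% interval from -0.15 to 0.15 (adjusted p = 0.989).

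IGF2BP1, which binds mRNAs such as ACTB and MYC, was the least abundant of the 5 mRNAs per base of coding sequence. It stood at 64.4, 64.5 and 62.0 CPM in young, 50.5, 50.2 and 54.0 CPM in old, and 24.3, 25.9 and 21.5 CPM in ICM cells, with no overlap between groups. Its log2 change was -1.41 in ICM against young (SE 0.08, adjusted p = 2.21e-13, edgeR) and -0.30 in old against young (SE 0.07, adjusted p = 7.78e-04). In ICM against old cells it was -1.11 (adjusted p = 2.71e-11).

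IGF2BP2, the paralog most broadly expressed in adult tissue, was the only one of the 5 that was lower in old than in ICM cells. It stood at 149, 141 and 135 CPM in young, 97.0, 91.6 and 83.4 CPM in old, and 124, 132 and 116 CPM in ICM cells. The groups did not overlap, although the highest ICM library (132) was close to the lowest young one (135). Its log2 change was -0.65 in old against young (SE 0.07, adjusted p = 3.61e-08, edgeR), 0.45 in ICM against old (SE 0.07, adjusted p = 6.53e-06) and -0.19 in ICM against young (SE 0.07, adjusted p = 0.0152). The last call was lost without young replicate 1 (adjusted p = 0.0770), without ICM replicate 3 (adjusted p = 0.0983), without both young replicate 1 and old replicate 2 (adjusted p = 0.0505) and when only CDS reads were counted (adjusted p = 0.0713), and over all its 18 alternatives the adjusted p ran from 0.00719 to 0.0983.

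IGF2BP3, an oncofetal paralog close to IGF2BP1, moved in opposite directions in the senescent and the treated cells. It stood at 80.4, 81.8 and 90.0 CPM in young, 112, 111 and 105 CPM in old, and 56.5, 53.5 and 55.5 CPM in ICM cells. The groups did not overlap. The log2 change was 0.38 in old against young (SE 0.06, adjusted p = 2.13e-05, edgeR), -0.61 in ICM against young (SE 0.07, adjusted p = 3.40e-08) and -0.99 in ICM against old (SE 0.07, adjusted p = 9.55e-12). Counting CDS reads only, which leaves out any part of the stretch shared with MALSU1 that lies in the UTRs, kept all 3 calls.

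By these measurements the groups did not overlap for 5 members in ICM against young, 4 in old against young and 5 in ICM against old, where 74.5%, 67.1% and 66.3% of all genes tested did not. A filter that also asks for a log2 change over 0.6 in size left 4, 2 and 4 calls, beside 38.4%, 32.6% and 29.4% of all genes tested. IGF2BP2 dropped out in both comparisons with ICM cells, and IGF2BP1 and IGF2BP3 in old against young.

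Levels between the genes were compared per kilobase of coding sequence, as CDS reads of mRNA-seq. In young cells the order was HMGA1 (776 ± 84.3 CPM per kb, SD, n = 3), HMGA2 (87.3 ± 8.50), IGF2BP2 (48.0 ± 3.21), IGF2BP3 (27.9 ± 0.69) and IGF2BP1 (15.7 ± 0.53), and no neighbours in it overlapped. In old cells HMGA2 stood at 186 ± 23.1 CPM per kb and IGF2BP3 (35.3 ± 0.87) stood above IGF2BP2 (29.6 ± 3.06). In ICM cells HMGA1 was again first (242 ± 17.96), but IGF2BP2 (42.1 ± 2.48) and IGF2BP3 (17.9 ± 0.50) both stood above HMGA2 (13.3 ± 2.49), with IGF2BP1 last (5.25 ± 0.50). Neighbours in the orders of old and ICM cells did not overlap either. For HMGA1, IGF2BP2 and IGF2BP3 these levels may include reads of their copies.

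Footprints in the CDS were compared next. HMGA1 and HMGA2 footprints fell in ICM cells against young and against old, HMGA2 footprints rose and IGF2BP2 footprints fell in old against young, and the remaining changes were not called. These were 2 members in each comparison, beside 26.6% of all genes tested in ICM against young (13.7% higher and 12.9% lower), 36.3% in old against young (19.3% higher and 17% lower) and 13.4% in ICM against old (5.79% higher and 7.62% lower). HMGA2 had 1, 0 and 3 reads in the ICM libraries and passed the filter on low counts mainly through young and old libraries. With only ICM and young libraries it did not pass, so its calls against ICM cells carry that limit.

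**Figure D2:**
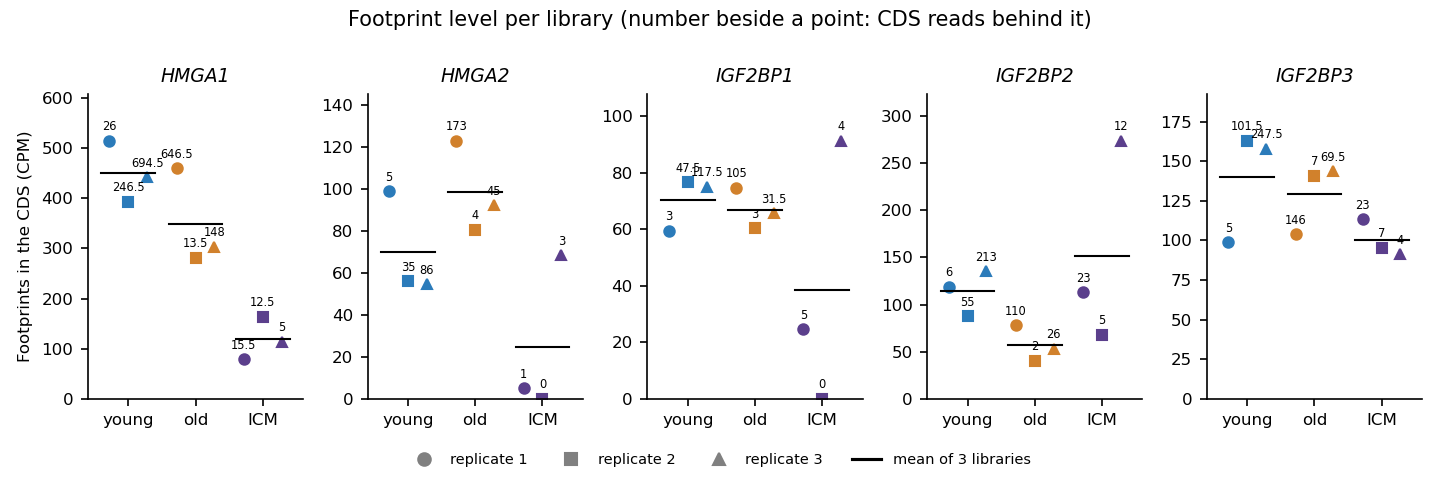
Footprints in the CDS in CPM (y axis, from 0, with its own scale in each panel) of the 5 genes in each of the 9 Ribo-seq libraries, by condition (x axis). Numbers beside points are the CDS reads behind them, symbols mark the replicate and lines the mean of 3 libraries. In ICM cells no gene has more than 23 reads in a library, and the highest ICM point of HMGA2 rests on 3 reads.

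For HMGA1, footprints stood at 515, 393 and 442 CPM in young (26, 246.5 and 694.5 reads), 459, 282 and 304 CPM in old (646.5, 13.5 and 148 reads) and 78.8, 164 and 114 CPM in ICM cells (15.5, 12.5 and 5 reads). All ICM libraries were below all others. The fitted log2 change was -2.02 in ICM against young (SE 0.31, adjusted p = 5.70e-06, edgeR), -1.83 in ICM against old (SE 0.31, adjusted p = 4.43e-05) and -0.19 in old against young (95% interval -0.60 to 0.21, adjusted p = 0.469). Both falls stayed called in all 18 alternatives each.

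For HMGA2, footprints stood at 99.0, 55.9 and 54.7 CPM in young (5, 35 and 86 reads), 123, 80.5 and 92.4 CPM in old (173, 4 and 45 reads) and 4.93, 0 and 68.5 CPM in ICM cells (1, 0 and 3 reads). ICM cells overlapped young cells through ICM replicate 3, and young cells overlapped old cells through young replicate 1. HMGA2 reads were also summed over the 3 libraries of a condition and set against the summed CDS reads without TMM factors (unscaled CPM). On this scale, not comparable with the CPM above, young cells stood at 51.3 (126 reads, exact Poisson 95% interval 42.7 to 61.0). Old cells stood at 96.0 (222 reads, 83.8 to 110) and ICM cells at 11.4 (4 reads, 3.11 to 29.2). These intervals cover counting error only, not the spread between libraries.

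The log2 change of HMGA2 footprints was -2.15 in ICM against young (SE 0.73, adjusted p = 0.0254, edgeR), 0.94 in old against young (SE 0.28, adjusted p = 0.00885) and -3.09 in ICM against old (SE 0.65, adjusted p = 6.97e-04). The first call was lost without young replicate 2, young replicate 3, ICM replicate 1 or ICM replicate 2, with adjusted p from 0.0525 to 0.357, and also with DESeq2 (adjusted p = 0.0815), with the replicate number as a block (0.0506) and with UTR reads added (0.0542). Its log2 value was -1.24 without ICM replicate 1 and -3.97 without ICM replicate 3, the ends of its range over 17 alternatives. The second was lost without young replicate 2, young replicate 3, old replicate 1 or old replicate 3, with adjusted p from 0.0729 to 0.468, and also with DESeq2 (adjusted p = 0.502) and with the block (0.408), and was 0.57 without old replicate 1. The third was lost without ICM replicate 1 (log2 change -2.21, adjusted p = 0.0530, the highest of its 18 alternatives) and was -4.94 without ICM replicate 3 (adjusted p = 2.36e-06, the lowest).

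For IGF2BP1, footprints stood at 59.4, 76.7 and 75.1 CPM in young (3, 47.5 and 117.5 reads), 74.7, 60.4 and 65.7 CPM in old (105, 3 and 31.5 reads) and 24.6, 0 and 91.3 CPM in ICM cells (5, 0 and 4 reads). Young and old libraries overlapped, and ICM libraries lay on either side of them. The log2 change in ICM against young was -1.40 (SE 0.55, adjusted p = 0.0550, edgeR) and was called without young replicate 1 (adjusted p = 0.0417), without ICM replicate 3 (log2 change -2.13, adjusted p = 0.00616) and with no filter on low counts (adjusted p = 0.0444), with 0.289 as the highest over its 18 alternatives. In ICM against old it was -1.32 (SE 0.56, adjusted p = 0.119) and was called without ICM replicate 3 (adjusted p = 0.0151), with 0.428 as the highest. In old against young it was -0.08 (95% interval -0.65 to 0.49).

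For IGF2BP2, footprints stood at 119, 87.9 and 136 CPM in young (6, 55 and 213 reads), 78.2, 40.2 and 53.4 CPM in old (110, 2 and 26 reads) and 113, 68.2 and 274 CPM in ICM cells (23, 5 and 12 reads). Every old library was below every young one, and ICM libraries spanned both groups. The log2 change was -0.77 in old against young (SE 0.27, adjusted p = 0.0249, edgeR), and this call was lost without young replicate 2, young replicate 3 or any 1 of the 3 old libraries, with adjusted p from 0.0532 to 0.455 and log2 changes from -1.20 to -0.53, and also with DESeq2 (adjusted p = 0.260) and with the replicate number as a block (0.107). It was 0.13 in ICM against young (95% interval -0.60 to 0.86) and 0.90 in ICM against old (SE 0.39, adjusted p = 0.128).

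For IGF2BP3, footprints stood at 99.0, 163 and 158 CPM in young, 104, 141 and 144 CPM in old and 113, 95.5 and 91.3 CPM in ICM cells. The 3 groups overlapped. The fitted log2 change was -0.56 in ICM against young (95% interval -1.21 to 0.09, adjusted p = 0.200), -0.38 in old against young (-0.82 to 0.07, adjusted p = 0.178) and -0.19 in ICM against old (-0.87 to 0.49, adjusted p = 0.779, all edgeR). In old cells the mRNA rose, while the fitted footprint change was negative. In unscaled CPM, summed over the libraries of a condition without TMM factors, IGF2BP3 footprints stood at 144 in young (354 reads, exact Poisson 95% interval 129 to 160). They stood at 96.0 in old (222 reads, 83.8 to 110) and 97.1 in ICM cells (34 reads, 67.2 to 136). These intervals too cover counting error only, and 146 of the 222 old reads came from old replicate 1. The unscaled old value lay below all 3 old libraries in scaled CPM (104, 141 and 144), so the scales are not to be compared. With TMM factors the mean of 3 libraries was 140 CPM in young, 129 in old and 100 in ICM cells.

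Without young replicate 1 and old replicate 2, the Ribo-seq libraries with a low CDS share, 3 members were called in ICM against young (IGF2BP1 joined, adjusted p = 0.0399), and HMGA2 and IGF2BP2 were again called in old against young, beside 19.1% and 26.5% of the 8113 genes then tested. In mRNA-seq the same omission left 4, 4 and 5 calls, beside 70.5%, 62.4% and 62.2% of the genes tested.

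Translational efficiency, the footprint level relative to the mRNA level, was tested for the same genes. It was called for 0 of the 5 in each comparison (edgeR, interaction of assay and condition with the lysate as a block), where 2.38%, 1.43% and 0.346% of all genes tested were called in ICM against young, old against young and ICM against old. The members with an unadjusted p under 0.05 numbered 0, 1 and 1, IGF2BP3 in both cases, and with DESeq2 0, 0 and 0. For IGF2BP3 the log2 change of translational efficiency was -0.71 in old against young (95% interval -1.21 to -0.22, adjusted p = 0.189, edgeR) and 0.78 in ICM against old (0.03 to 1.53, adjusted p = 0.432). For HMGA1 it was -0.35 in ICM against young (-1.004 to 0.30) and -0.31 in old against young (-0.72 to 0.10). For HMGA2 the interval in ICM against young ran from -1.34 to 2.57, so that differences within that range could not be told from 0 at this depth. For IGF2BP1 and IGF2BP2 in ICM against young the intervals ran from -1.32 to 1.29 and from -0.45 to 1.05.

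**Figure D3:**
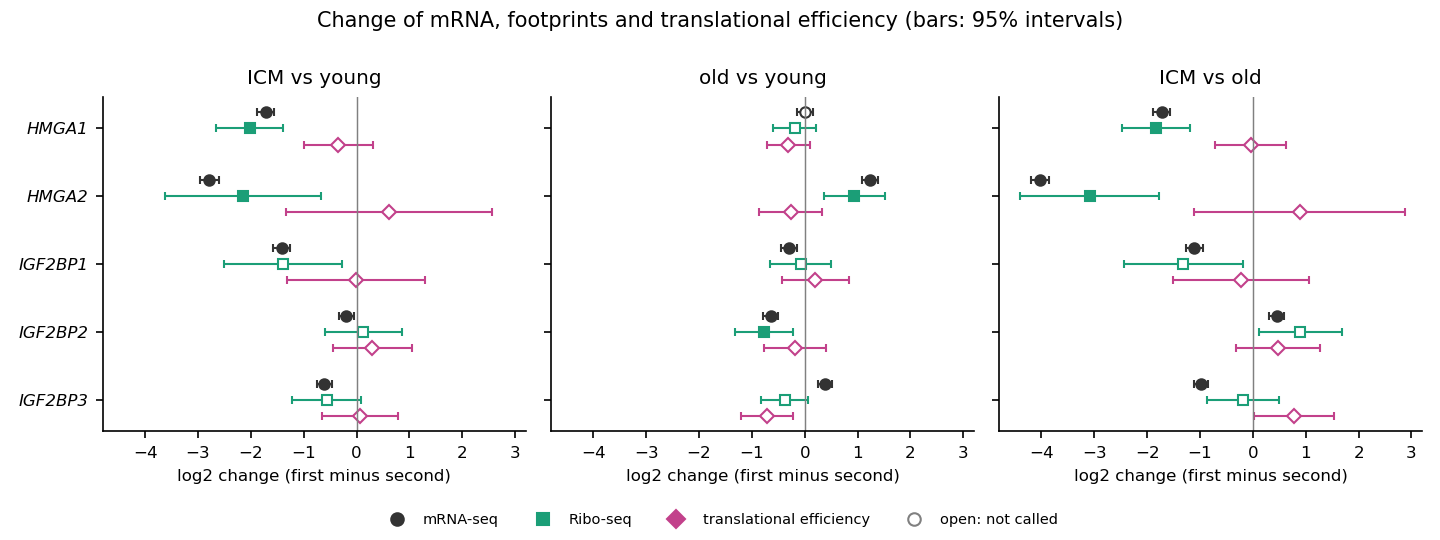
Log2 change (x axis, the first condition minus the second) of mRNA (circles), footprints (squares) and translational efficiency (diamonds) for the 5 genes (y axis) in the 3 comparisons. Bars are 95% intervals of the edgeR fits and open symbols are changes that were not called. The mRNA intervals are the narrowest, and every translational efficiency symbol is open.

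In young cells, the mean CPM of footprints over the mean CPM of CDS reads in mRNA-seq was 1.79 for HMGA1, 2.43 for HMGA2, 2.58 for IGF2BP1, 1.32 for IGF2BP2 and 2.88 for IGF2BP3, where the median of 4618 genes was 1.94. IGF2BP3 ranked at the 82.4th percentile and IGF2BP2 at the 22.5th. In old cells IGF2BP1, at 3.45, ranked at the 90.7th percentile and IGF2BP3, at 2.11, at the 60.0th, with a median of 1.90 over all genes. The ratios of HMGA2 and IGF2BP1 in ICM cells rest on 4 and 9 footprints and are not read.

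Since the matches to let-7 lie in the 3′ UTRs, the share of each gene's mRNA-seq reads in its 3′ UTR was followed. In HMGA2 it was 59.8%, 61.9% and 63.5% in young, 66.4%, 72.1% and 65.6% in old, and 62.1%, 57.2% and 62.1% in ICM cells, with every old library above every other. In IGF2BP1 it was 49.3%, 52.7% and 50.8% in young, 54.7%, 57.0% and 56.4% in old, and 54.5%, 53.6% and 54.7% in ICM cells, with young cells below both. Library-wide, 3′ UTR reads made up 24.7% to 25.1% of coding-gene reads in young, 26.8% to 28.9% in old and 24.6% to 26.1% in ICM cells, so the old libraries were also the highest over all genes.

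**Figure D4:**
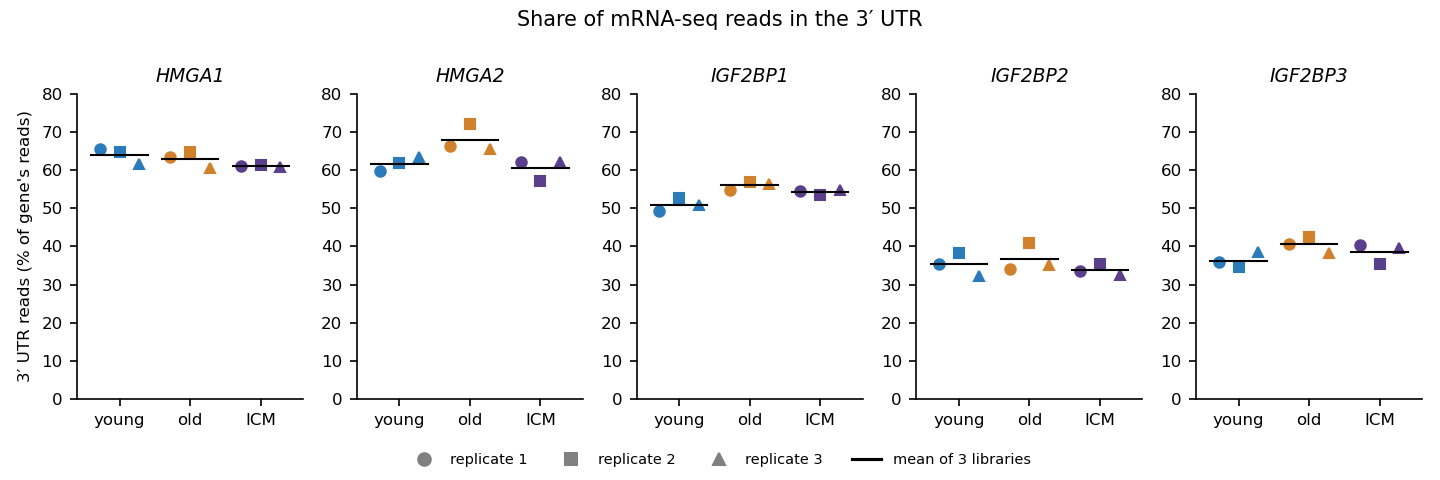
Share of each gene's mRNA-seq reads that lie in its 3′ UTR, in percent (y axis, from 0 to 80), for the 5 genes in each of the 9 libraries, by condition (x axis). Symbols mark the replicate and lines the mean of 3 libraries. HMGA2 in old cells is at 65.6% to 72.1%, above its young and ICM libraries, and HMGA1 stays between 60.5% and 65.5%.

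In the test of 3′ UTR against CDS reads, 0 of the 5 were called in each comparison, against 4.47%, 1.9% and 1.81% of all genes tested (edgeR, region by condition, with the library as a block). The members with an unadjusted p under 0.05 numbered 0, 2 and 1. In old against young these were HMGA2, with a log2 change of 0.29 (95% interval 0.03 to 0.56, adjusted p = 0.429, edgeR), and IGF2BP1, with 0.33 (0.06 to 0.60, adjusted p = 0.348). In ICM against old it was HMGA2, with -0.41 (-0.76 to -0.05, adjusted p = 0.355). In HMGA1 the 3′ UTR share stayed between 60.5% and 65.5% in all 9 libraries, and in IGF2BP2 between 32.4% and 40.9%.

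Footprints were also counted outside the CDS. In the 5′ UTR of HMGA1, which precedes a CDS of only 324 bases, lay 11.9% of its footprints in young cells (134 of 1122, exact binomial 95% interval 10.1% to 13.99%) and 6.17% in old cells (55 of 891, 4.68% to 7.96%). For HMGA2 these shares were 10.4% (15 of 144, 5.95% to 16.6%) and 4.08% (10 of 245, 1.97% to 7.38%). In ICM cells the share was 7.5% for HMGA1 (3 of 40, 1.57% to 20.4%) and 16.7% for HMGA2 (1 of 6, 0.421% to 64.1%). In the IGF2BP genes the 5′ UTR share was at most 2.78% in any condition. The reads were summed over 3 libraries, so the intervals cover counting error only, and the library-wide share ran the other way, from 2.78% to 10.2% in young and from 4.89% to 44.7% in old libraries. In the 3′ UTR the highest share in old cells was that of IGF2BP1, 11.4% (18 of 158 reads, 6.89% to 17.4%), against 5.03% in young (9 of 179, 2.32% to 9.33%) and 0 of 9 in ICM cells (up to 33.6%). The intervals of young and old overlapped, and 15 of the 18 old reads came from old replicate 1.

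The mRNA patterns of the 5 genes over the 9 libraries were compared with those of the 10808 genes of at least 5 CPM, by the Euclidean distance of mean-centred log2 CPM. Nearest to HMGA1 were ARHGDIA (distance 0.14), RAC3 (0.26) and MFSD2B (0.31). Nearest to HMGA2 were LRRC17 (0.61), NES (0.71), the intermediate filament nestin, and TXNIP (0.75), an inhibitor of thioredoxin. By this distance the HMGA2 pattern had no neighbour as close as those of the others. The distance grows with the size of a gene's changes, and HMGA2 had the widest range of the 5. CNN2 (0.24), EPHA1 (0.27) and ARL2 (0.27) were nearest to IGF2BP1, and NEK9 (0.16), NOP2 (0.20) and DHRS4L2 (0.20) to IGF2BP2. The nearest to IGF2BP3 were ANXA6 (0.14), ITGB1 (0.20), the integrin beta 1 chain, and FAP (0.21), the fibroblast activation protein.

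Among the 5 themselves, HMGA1 and IGF2BP1 were the closest pair, at a distance of 0.80. By distance from HMGA1, IGF2BP1 stood only at rank 92 of all genes compared. HMGA2 and IGF2BP2 were the farthest apart, at 5.52. In old cells HMGA2 rose by 1.24 on the log2 scale while IGF2BP2 fell by 0.65, and in ICM cells HMGA2 fell by 2.79 while IGF2BP2 fell by 0.19.

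Among 13 client mRNAs of the IGF2BP proteins, 12 were tested, with 5 higher and 5 lower in ICM against young cells and 6 higher and 2 lower in old against young. The median log2 change was 0.08 and 0.28. Of all genes tested, 34.9% were called higher and 36.1% lower in ICM against young. In old against young these shares were 32.4% and 33.7%, and they are the background for the lists below too. IGF2, the growth factor whose mRNA named the family, moved like HMGA2 in direction. It stood at 42.3, 47.8 and 46.2 CPM in young, 339, 281 and 354 CPM in old, and 6.38, 7.31 and 8.14 CPM in ICM cells, with no overlap. The log2 change was 2.83 in old against young (SE 0.09, adjusted p = 1.99e-17, edgeR) and -2.65 in ICM against young (SE 0.12, adjusted p = 5.78e-15). IGF2 footprints rose in old cells (log2 change 2.24, adjusted p = 2.26e-06), and with 0, 0 and 1 reads in the ICM libraries the difference from young was not called (adjusted p = 0.0994).

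Other clients moved differently. CCND3, a G1 cyclin, rose in ICM (log2 change 1.85) and in old cells (1.24), and BTRC, a ubiquitin ligase subunit, rose by 1.17 in ICM cells. CCND1, another G1 cyclin, rose by 2.15 and CD44, a hyaluronan receptor, by 1.02 in old cells. ACTB, the beta-actin mRNA whose zipcode IGF2BP1 binds, fell by 1.00 (log2) in ICM cells and had a log2 change of -0.03 in old cells, which was not called. Its translational efficiency was higher in ICM cells than in young (log2 change 0.66, SE 0.16, adjusted p = 0.0214, edgeR). It was also higher in ICM cells than in old (log2 change 0.73, SE 0.16, adjusted p = 0.0347, edgeR). In each of these comparisons ACTB was the only call among the 11 clients tested. ACTB footprints did not rise in ICM against young (log2 change -0.34, adjusted p = 0.0831, edgeR, not called). In footprints, 3 clients were higher and 0 lower in ICM against young among 11 tested, and 5 were higher and 0 lower in old against young. Of all genes tested, 13.7% and 19.3% were called higher.

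Of 9 proteins that form complexes with IGF2BP1 or its RNAs, 8 mRNAs fell and 0 rose in ICM against young, and 8 fell and 0 rose in old against young. Their median log2 change was -0.69 and -0.56. Of all genes tested, 36.1% and 33.7% were called lower. HNRNPU, a nuclear RNA-binding protein, fell by 1.00 and 0.95 on the log2 scale, SYNCRIP by 0.84 and 0.59 and MATR3 by 0.82 and 0.83. PABPC1, the cytoplasmic poly(A)-binding protein, fell by 0.93 in ICM cells, and DHX9, an RNA helicase, by 0.77 in old cells. In footprints 5 and 6 of 8 tested fell, beside 12.9% and 17% of all genes tested.

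Of 8 other high mobility group genes, 6 fell and 2 rose in ICM against young, and 6 fell and 1 rose in old against young. Their median log2 change was -1.05 and -1.0001. HMGB2, a target of inflachromene, fell by 4.44 and 2.43 on the log2 scale, HMGB3 by 2.18 and 1.24, HMGB1, the other target, by 1.73 and 1.40, and HMGN2, a nucleosome-binding protein, by 1.33 and 1.73. In old cells HMGA1, with a log2 change of 0.00, was not called, and HMGA2, with 1.24, rose.

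**Figure D5:**
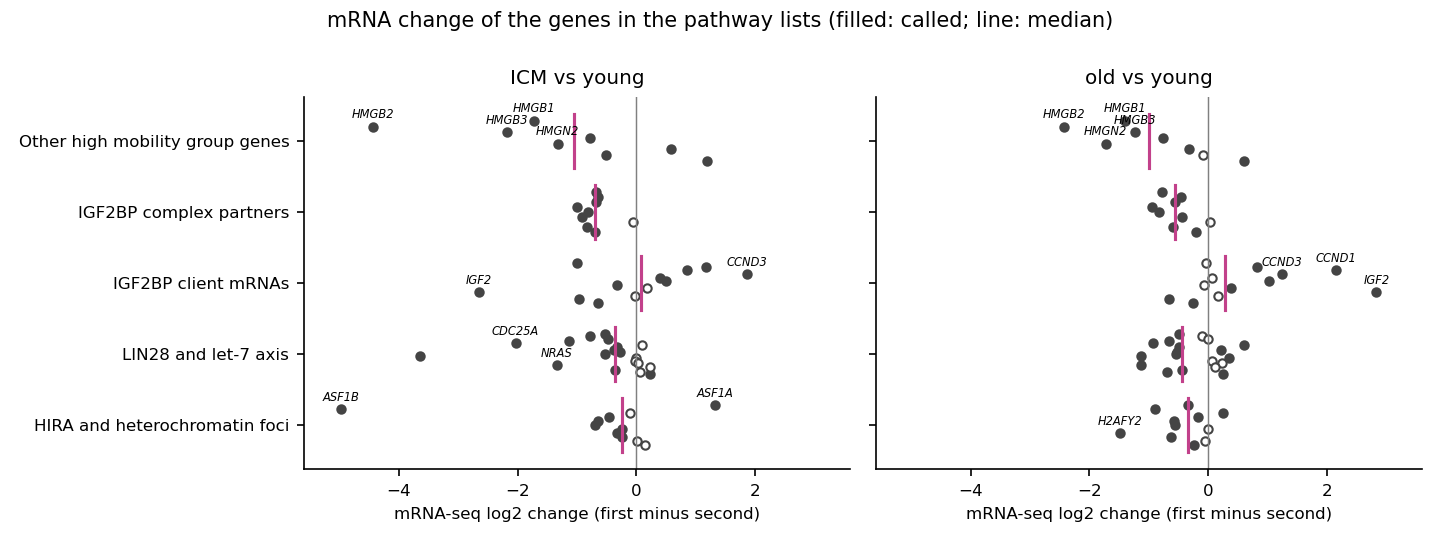
mRNA-seq log2 change (x axis, the first condition minus the second) of every tested gene of 5 gene lists (y axis) in ICM against young (left) and old against young (right). Each point is a gene, filled where called, lines are list medians, and names mark the genes given in the text with changes over 1.2 in size. The median of the complex partners is -0.69 on the left and -0.56 on the right, and IGF2 lies at -2.65 and 2.83.

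Of 23 genes of the LIN28 and let-7 axis, which hold the LIN28 proteins, let-7 processing factors and known let-7 targets, 19 were tested. In ICM against young cells 12 fell and 1 rose, and in old against young 10 fell and 4 rose, with medians of -0.36 and -0.44. LIN28B and MYCN had 0 reads in all 9 mRNA-seq libraries, LIN28A had 25 and TRIM71 had 1. CDC25A, a cell cycle phosphatase and let-7 target, fell by 2.04 (log2) in ICM cells and fell by 0.93 in old cells. NRAS, a GTPase of the RAS family and another target, fell by 1.34 in ICM cells and fell by 1.13 in old cells. ARID3B fell by 1.13 and 0.66, AGO2, the effector of microRNAs, by 0.78 in ICM cells, and TUT4, an enzyme that marks let-7 precursors, by 0.69 in old cells.

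Of 11 genes of the HIRA pathway and heterochromatin foci, with which HMGA proteins are known to work, 7 fell and 1 rose in ICM against young and 8 fell and 1 rose in old against young, with medians of -0.25 and -0.34. The histone chaperone ASF1B, which is linked to DNA replication, fell by 4.97 (log2) in ICM and fell by 0.90 in old cells, while ASF1A rose by 1.33 in ICM cells. CBX5 and CBX3, heterochromatin protein 1 chains, fell by 0.70 and 0.65 in ICM cells. In old cells H2AFY2, a macroH2A histone gene, fell by 1.48, HIRA by 0.62 and CBX3 by 0.57. All list counts are to be read against the background shares given above for each comparison.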

How the data were processed

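Footprints and poly(A) mRNA were sequenced from 9 lysates, 18 libraries in 6 groups of 3. The deposited tables hold estimated counts per gene symbol for the 5′ UTR, CDS, 3′ UTR and other classes, not scaled to depth by the authors, and in each library 14.1% to 23.2% of non-zero entries are not whole. The submitters' processing notes name STAR 2.6.0c, featureCounts, DESeq2, deepTools and GRCh37 without saying which made these tables, and the placing of reads with several matches is not given in the sources used here. Groups came from the sample titles.

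As in the study's methods, Ribo-seq was counted over the CDS and mRNA-seq over the 5′ UTR, CDS and 3′ UTR together. Estimated counts were rounded, filtered with filterByExpr, scaled by TMM and tested with the quasi-likelihood functions of edgeR 4.0.16 (R 4.3.3), with the 9 libraries of an assay in 1 fit. Tests were two-sided, with Benjamini-Hochberg adjustment over all genes tested, and genes were called at an adjusted p under 0.05 (the study used 0.15, tried as an alternative). Translational efficiency was the interaction of assay and condition over 18 libraries with the lysate as a block, which rests on the methods' statement that lysates were divided. Both libraries of a lysate deviated from their groups with a correlation across genes of r = -0.0779 to 0.128. Alternatives were RLE scaling, DESeq2 1.42.0, no filter, only the compared groups, the block added or dropped, other thresholds, other read regions and leaving out libraries. The fits were tested on simulated counts.

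Gene structures came from GENCODE v44lift37 and microRNAs from RefSeq. Standard errors are on the log2 scale. The members and lists were chosen with earlier results of these data known. Named genes were all 5 members, the 3 nearest mRNA patterns of each among genes of at least 5 CPM (prior count 2), and from each list at most 4 called genes with the largest mRNA change in ICM against young and 4 in old against young, among those with a mean of at least 5 CPM in 1 of the groups compared.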

Additional observations from a re-analysis of the deposited data

Results flagged for a closer look

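In ICM cells, 10% of the HMGA1 footprints lay in the 3′ UTR (4 of 40 reads, exact binomial 95% interval 2.79% to 23.7%), against 1.78% in young (20 of 1122, 1.09% to 2.74%) and 3.14% in old cells (28 of 891, 2.10% to 4.51%). It is singled out because 3′ UTR footprints are outside the CDS counts on which the Ribo-seq comparisons rest and because the intervals of ICM and young cells, which cover counting error only, do not overlap. That separation depends on rounding: the ICM reads there are an estimated count of 3.5, all from replicate 1, and rounded down the share was 7.69% (3 of 39, 1.62% to 20.9%), which overlaps young cells. The difference was not tested between libraries. Library-wide, 3′ UTR reads were 1.77% to 3.1% of coding-gene footprints in ICM cells and 1.40% to 12.4% in young cells.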

How the results depend on the processing

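No value changed direction while called. Of 270 values of single members in mRNA-seq under an alternative, 262 stayed on their side of the threshold and 8 lost a call, and of 267 in Ribo-seq 238 stayed, 21 lost a call and 8 gained one. In mRNA-seq, asking also for a log2 change over 0.6 left 2 members called in old against young in place of 4. In Ribo-seq ICM against young, 1 member was called in place of 2 with DESeq2, with only the compared groups (where HMGA2 did not pass the filter, nor IGF2BP1 and IGF2BP2 in ICM against old) and with UTR reads added, and leaving out 1 library gave 1 to 3. In old against young, DESeq2 called 0 in place of 2, and leaving out 1 library gave 0 to 2. In ICM against old, an adjusted p under 0.15 gave 4, and leaving out 1 library gave 1 to 3.

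With the replicate number as a block, 1 member was called in Ribo-seq ICM against young, 0 in old against young and 2 in ICM against old, where the share of all genes called was 16%, 14.1% and 9%, and in mRNA-seq 5, 4 and 5 (71.4%, 66.7% and 63.8%). Same-numbered libraries of different conditions did not deviate together (r from -0.117 to 0.143 in mRNA-seq and from 0.00335 to 0.0469 in Ribo-seq). Libraries of the same lysate did not either (r from -0.0779 to 0.128). The check therefore cannot show whether same-numbered cultures were linked. Without the lysate block, translational efficiency was called for 1 member in old against young, IGF2BP3 (log2 change -0.81, adjusted p = 0.00237, the lowest of its 16 alternatives, which ran to 0.9997), and the share of all genes called was then 8.86% in place of 1.43%. Depth limits the Ribo-seq results in ICM cells, where 4 to 40 footprints per gene were counted in all.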
